A study of Mus musculus with 6 samples.

Results

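Rab proteins are small GTPases of the Ras superfamily that give membrane compartments their identity. In the GTP-bound form a Rab recruits effectors that move, tether and fuse vesicles, and each Rab acts on its own set of membranes, such as early endosomes, lysosomes, the Golgi or secretory granules. Myeloid cells depend on them to take up particles, to degrade or preserve antigen and to deliver cytokines and MHC molecules to the surface. Genes were chosen by symbol: Rab, a number and optional letters, with effectors such as the Rab11fip genes left out. Of 19938 genes measured, 61 had such a symbol, each represented by its probe set with the highest mean over the 6 arrays. Of these 61, 59 encode Rab GTPases, and the other two, Rab5if and Rab10os, do not and are given on their own.

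RNA was measured on 6 Affymetrix Mouse Gene 1.0 arrays. The cells were bone marrow of C57B/6 mice kept in culture for 6 days, with recombinant GM-CSF at 20 ng/ml as the agent that every group shared. GM-CSF is a cytokine that drives myeloid growth. The labels name 3 arrays dendritic and 3 macrophage, both from the same kind of culture and both unstimulated. The sources used here do not say how the populations were separated or whether each replicate had its own mouse or culture. The p-values therefore cover the spread between these samples and no more, and that spread may be technical. Values are deposited log2 RMA values. Every difference is the dendritic minus the macrophage mean (log2), ± SE of the limma fit with n = 3 per population. A gene is called where the adjusted p was under 0.05 over all 19938 genes. RMA compresses differences of dim probe sets, and the values of different genes are not compared with each other because their probes differ.

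The labels were checked against marker genes. Of 8 dendritic markers 6 were called higher and 1, Itgax, lower in the dendritic arrays, and H2-Ab1 was not called. All 8 macrophage markers were called lower. The mean log2 value of 10 neutrophil genes was 7.29 on dendritic array 1 against 6.40 and 6.11 on arrays 2 and 3, and 8.01 on macrophage array 1 against 6.82 and 6.99, so replicate 1 stood apart in both populations. Of these 10 genes 2 were called, Mpo and Mmp8, both lower in the dendritic arrays. The mean of 5 mitotic genes was 5.03 to 5.14 in the dendritic arrays. It was 5.50 on macrophage array 1 against 6.88 and 6.91 on arrays 2 and 3, and 2 of the 5 genes were called lower. The means of T cell, NK cell, mast cell, basophil and eosinophil, and erythroid and megakaryocyte genes lay between 3.51 and 4.96 on all arrays, with none called. B cell genes ranged from 3.91 to 4.59, with Cd79a called higher. The part of neutrophil or dividing cells in the Rab differences was not tested, and in bulk samples fewer cells of a type and less RNA per cell cannot be told apart.

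Rab genes differed in both directions. Of the 59, 17 were called higher and 11 lower in the dendritic population, where 9.98% of all genes were called higher and 11.6% lower, or 21.6% in all. Without replicate 1 of both populations, where the neutrophil genes were highest, 17 were higher and 13 lower. The share of all genes called is given for the main fit only, so counts from other fits have no background beside them. The median difference of the 59 was 0.08 and that of all genes 0.03. The median absolute difference was 0.49 for Rab genes and 0.18 for all genes. Much of the array is dim: 12 Rab genes lay below the array median of 4.85 (mean of the 6 array medians) in both populations, and none of these was called. Among genes with a population mean at or above that median, 28 of 47 Rab genes and 35.6% of all 11590 genes were called. A gene could pass this bound through either population alone, as Rab30 and Rab7b did, so the bound favours genes that differ. Here and below, the 35.6% is therefore not a share of genes matched for level. A called difference of at least 2-fold was seen for 6 higher and 5 lower Rab genes (10.3% of all genes, both directions together). In 35 of the 59 genes no dendritic array fell within the macrophage range or the reverse, where the share over all genes was 34.0%.

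**Figure D1:**
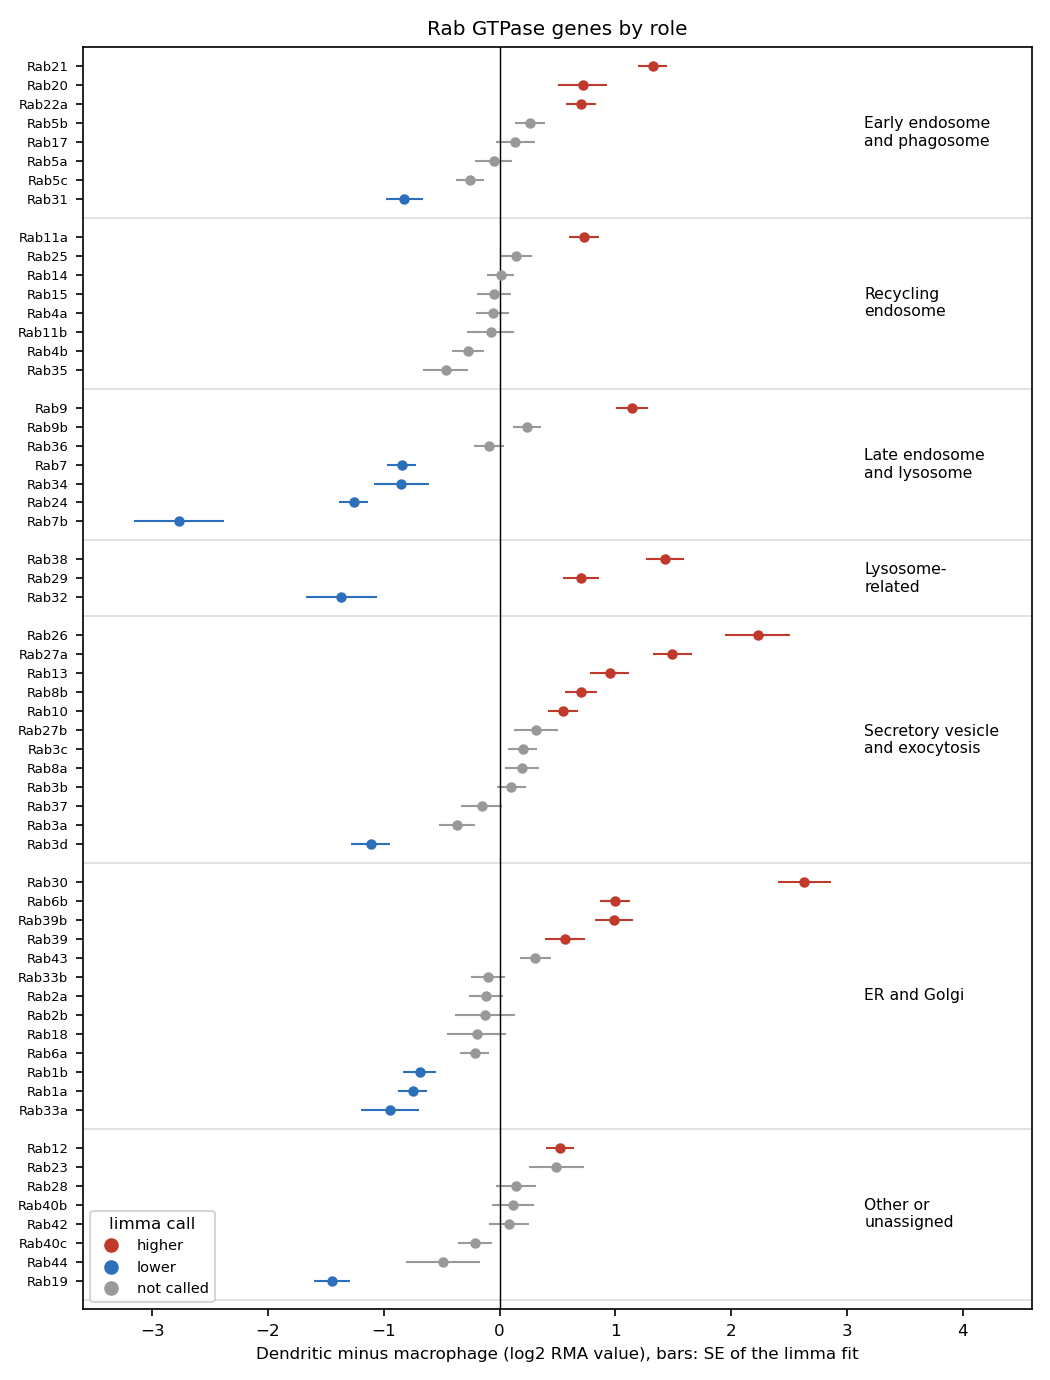
Each point is the dendritic minus macrophage difference of 1 of the 59 Rab GTPase genes in log2 RMA units, with bars of 1 SE from the limma fit, grouped by known role. Rab30 (2.63) and Rab26 (2.23) lie farthest to the right, Rab7b (-2.77) farthest to the left, and the recycling group has 1 called member.

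Endocytic and secretory Rabs were compared by role. The endocytic class joined Rabs of early endosomes and phagosomes, recycling endosomes, and late endosomes and lysosomes. Of its 23 members 5 were called higher and 5 lower (43.5%), with a median of -0.05. Over all genes 21.6% were called, and 35.6% of those with a population mean at or above the array median. The secretory class held 12 Rabs of secretory vesicles and exocytosis, of which 5 were called higher and 1 lower (50%), with a median of 0.26. After quantile normalization was applied again the secretory counts were 5 and 2. Without replicate 1 of both populations the endocytic counts were 5 and 7 and the secretory 5 and 1. The difference between these classes was not tested. Within the endocytic class the median was 0.20 for early endosome and phagosome, where 3 of 8 were called higher and 1 lower. It was -0.05 for recycling (1 of 8 higher) and -0.85 for late endosome and lysosome (1 of 7 higher, 4 lower). Differences between these compartments were not tested.

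Among early endosomal Rabs, Rab21 had the largest difference. Rab21 (probe set 10372478), which acts in the traffic of integrins through early endosomes, read 9.61, 9.43 and 9.58 on dendritic arrays 1 to 3. On macrophage arrays 1 to 3 it read 8.33, 8.17 and 8.15. All dendritic arrays lay above all macrophage arrays, by 1.32 ± 0.12 or 2.50-fold (limma adjusted p = 7.57e-05). Its relative Rab22a, a Rab of endosomal sorting and recycling, read 7.72, 7.70 and 7.98 against 7.14, 7.05 and 7.10. The Rab22a populations were apart by 0.70 ± 0.13 (limma adjusted p = 0.00379). Rab31, also known as Rab22b, which links the trans-Golgi network with endosomes, went the other way, with 6.98, 6.54 and 6.72 in the dendritic and 7.75, 7.57 and 7.38 in the macrophage arrays. It fell by 0.82 on the log2 scale (SE 0.16, limma adjusted p = 0.00495), so Rab22a and Rab31 moved in opposite directions.

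Rab20, a Rab of phagosome maturation, read 7.62, 7.05 and 6.90 in the dendritic and 6.68, 6.55 and 6.19 in the macrophage arrays. It was higher by 0.72 ± 0.21 (limma adjusted p = 0.0382), with groups that came close but did not overlap. Leaving out dendritic replicate 1 (adjusted p = 0.0687) or 2 (0.0682) ended the call, as did fits without macrophage replicate 2 (0.0819) or 3 (0.139), and with all probe sets tested (0.0930). Its adjusted p ranged from 0.00484 to 0.967 over the alternatives. The Rab5 genes, whose products drive the fusion of early endosomes, were not called. Rab5a read 7.33, 7.31 and 7.05 against 7.51, 7.33 and 7.001 in the macrophage arrays. Its arrays overlapped, with a difference of -0.05 (95% interval -0.42 to 0.32). Rab5b read 8.84, 8.91 and 9.001 against 8.51, 8.75 and 8.69 (0.26, 95% interval -0.02 to 0.55), and Rab5c read 8.51, 8.45 and 8.63 against 8.70, 8.86 and 8.80 (-0.26, 95% interval -0.53 to 0.02). In neither did the populations overlap. Both probe sets of Rab5b gave like differences, 0.26 and 0.28. Rab17, best known from epithelial transcytosis, differed by 0.14 and was not called.

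Late endosomal Rabs held the largest difference downward. Rab7b (probe set 10349661), which serves transport from late endosomes to the trans-Golgi network, read 3.997, 4.12 and 4.02 on the dendritic arrays. It read 7.90, 6.44 and 6.10 on the macrophage arrays. The dendritic values were tight and under the array median, the macrophage values spread over more than a log2 unit with replicate 1 the highest, and the difference was -2.77 ± 0.39, or 6.82-fold (limma adjusted p = 0.000839). With replicate 1 of both populations left out (an alternative added once the data had been seen), Rab7b differed by -2.20. Rab7 (probe set 10546092), the Rab of fusion with lysosomes, read 9.83, 9.69 and 9.94 against 10.66, 10.70 and 10.65. Rab7 lay well above the array median on every array and fell by 0.85 in the dendritic population (SE 0.12, limma adjusted p = 0.000994).

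Rab24, linked to autophagy, followed the same direction, with 7.86, 7.59 and 7.67 in the dendritic and 8.94, 8.95 and 9.005 in the macrophage arrays. The macrophage arrays were nearly equal, and the difference was -1.26 ± 0.13 (limma adjusted p = 0.000102). Rab34, which positions lysosomes and acts in macropinocytosis, read 4.13, 4.47 and 5.07 against 5.19, 5.35 and 5.66. Rab34 had a dendritic mean of 4.55, below the array median. It differed by -0.85 ± 0.24 (limma adjusted p = 0.0307), but leaving out dendritic replicate 1 (adjusted p = 0.0688) or 2 (0.102) ended the call, as did fits without macrophage replicate 2 (0.0733) or 3 (0.114). Centring on the 75th percentile (0.0675) and testing all probe sets (0.0821) also lost it; its alternatives ranged from 0.00231 to 0.591. Rab9 was the exception in this class. Rab9 (probe set 10607832), which returns mannose 6-phosphate receptors from late endosomes to the Golgi, read 9.07, 9.07 and 9.15 against 8.15, 7.73 and 7.97 and rose by 1.14 ± 0.14 (2.21-fold, limma adjusted p = 0.000376). Its paralog Rab9b read 4.98, 4.90 and 5.14 against 4.78, 4.73 and 4.79, a difference of 0.24 (95% interval -0.04 to 0.51), and Rab36 differed by -0.09. Neither was called.

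Of 8 recycling Rabs Rab11a was called higher and none lower, 12.5% against 21.6% of all genes, a share too near the background at this number to set the class apart. Rab11a (probe set 10594480), the main Rab of the recycling endosome, read 9.19, 8.99 and 9.13 in the dendritic and 8.52, 8.35 and 8.27 in the macrophage arrays. It rose by 0.73 ± 0.13 (limma adjusted p = 0.00312). Its paralog Rab11b read 9.01, 8.26 and 8.57 against 8.96, 8.59 and 8.53, with overlapping groups and replicate 1 the highest in both (-0.08, 95% interval -0.54 to 0.39). The second, dimmer Rab11b probe set differed by 0.19 and was not called either. Rab14 differed by 0.01 (95% interval -0.26 to 0.27), the smallest difference of all 59. Rab35, which acts in fast recycling and with actin, differed by -0.47 ± 0.20 and was not called (limma adjusted p = 0.148). Blocking on the replicate number brought a call (adjusted p = 0.0301), as did fits without dendritic replicate 1 (0.0111), without replicate 1 of both populations (0.0124) and with array weights (0.0182); its alternatives ranged from 0.0111 to 1. Rab4a, Rab4b, Rab15 and Rab25 differed by -0.06, -0.27, -0.05 and 0.15. Of these, Rab4b was called with array weights (adjusted p = 0.0247) and without replicate 1 of both populations (0.0394), within a range of 0.0247 to 1.

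Rab32, Rab38 and Rab29 serve lysosome-related organelles, such as melanosomes, and lysosomes. All 3 were called, where 21.6% of all genes were called. Rab32 (probe set 10367822) read 7.63, 6.55 and 6.45 in the dendritic and 8.60, 8.23 and 7.91 in the macrophage arrays, with replicate 1 the highest in both. It was lower by 1.37 on the log2 scale, a difference of -1.37 ± 0.31 (limma adjusted p = 0.0115). Leaving out dendritic replicate 2 ended the call (-1.20, adjusted p = 0.0537), within a range of 0.000116 to 0.101. Its close relative Rab38 (probe set 10554800) went the other way, with 6.71, 6.43 and 6.43 against 4.81, 5.33 and 5.14. Rab38 rose by 1.43 ± 0.16, or 2.70-fold (limma adjusted p = 0.000259). Rab29, a partner of the kinase Lrrk2, read 8.46, 8.28 and 8.66 against 8.004, 7.62 and 7.68. Rab29 was higher by 0.70 ± 0.16 (limma adjusted p = 0.0108), and its call ended when macrophage replicate 2 was omitted (0.0547, alternatives from 0.00101 to 0.742).

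**Figure D2:**
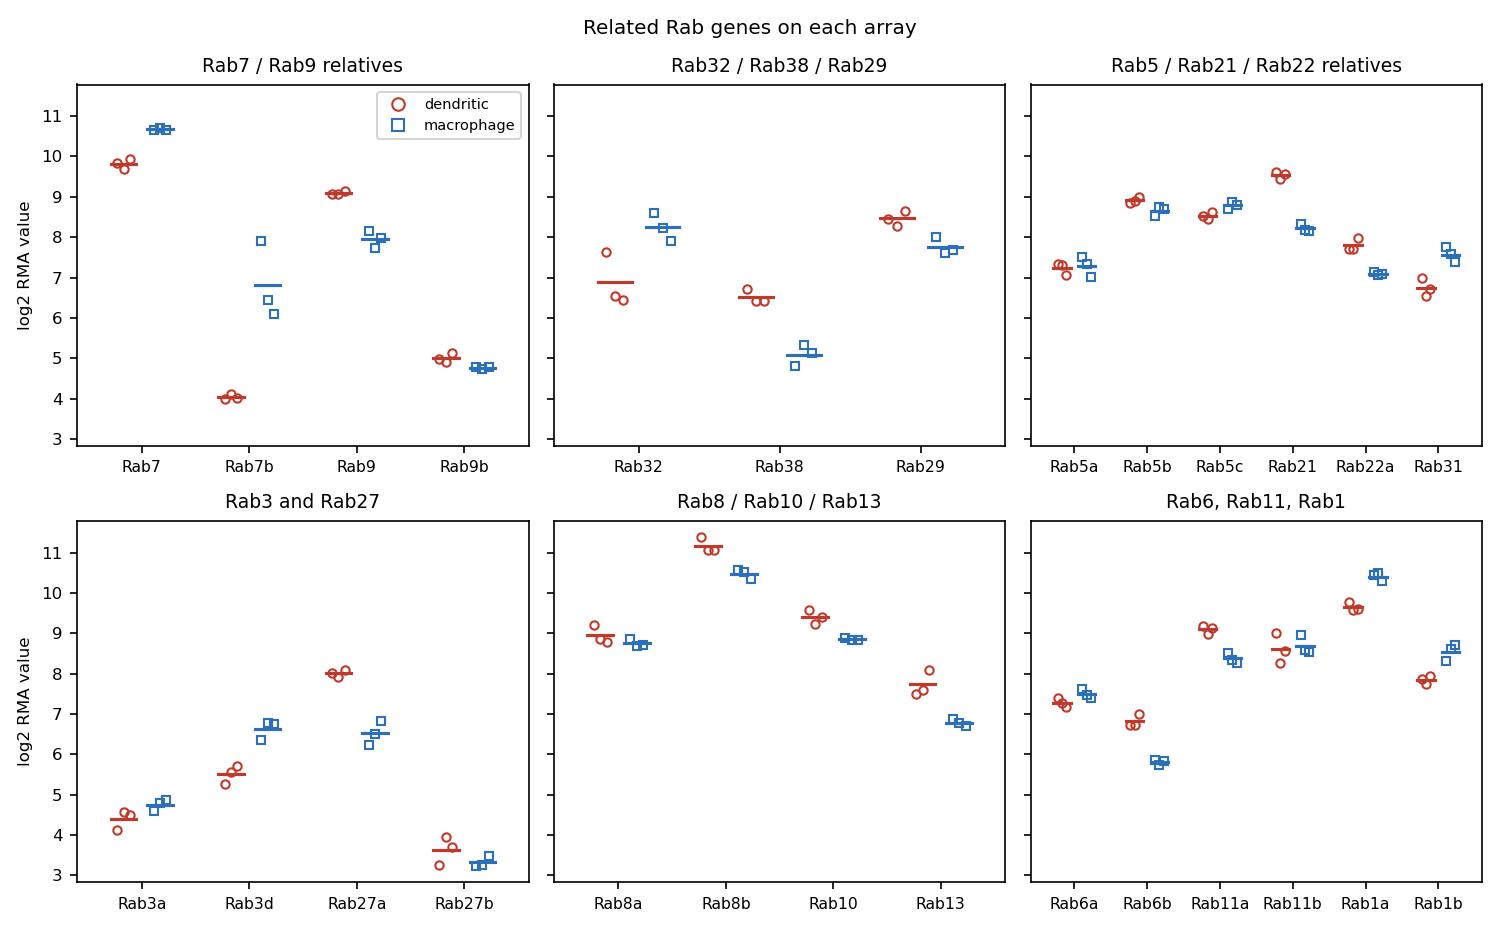
Log2 RMA values of related Rab genes on each of 3 dendritic arrays (circles) and 3 macrophage arrays (squares), with lines at the population means; heights of different genes are not comparable. Relatives split: Rab7 and Rab7b are lower and Rab9 higher in dendritic arrays, Rab32 lower and Rab38 higher, and Rab3d lower and Rab27a higher.

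Rabs of regulated secretion were led by Rab26 and Rab27a. Rab26 (probe set 10448615), which acts in the maturation of secretory granules, read 6.78, 6.69 and 7.42 in the dendritic arrays. In the macrophage arrays it read 4.76, 4.19 and 5.24. Both groups spread, but they were well apart, with a rise of 2.23 ± 0.28 or 4.69-fold (limma adjusted p = 0.000436). The macrophage mean lay below the array median. Rab27a (probe set 10587023), which docks secretory lysosomes and exosome-bearing endosomes at the plasma membrane, read 8.03, 7.93 and 8.10 against 6.24, 6.503 and 6.83. It rose by 1.49 ± 0.17, or 2.82-fold (limma adjusted p = 0.000197). Its paralog Rab27b read 3.25, 3.96 and 3.70 against 3.23, 3.25 and 3.49, below the array median throughout, and was not called (0.31, 95% interval -0.11 to 0.74). Rab27b was called without dendritic replicate 1 (0.51, adjusted p = 0.0398) and with array weights (0.0355), within a range of 0.0355 to 1.

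The Rab3 genes, whose products are known from synaptic and granule release, included no called rise. Rab3d (probe set 10591643) read 5.27, 5.57 and 5.71 in the dendritic and 6.36, 6.77 and 6.75 in the macrophage arrays. It was the secretory Rab called lower, by -1.11 ± 0.17 (limma adjusted p = 0.00127). Rab3a read 4.13, 4.56 and 4.48 against 4.59, 4.81 and 4.87. It differed by -0.37 without overlap of the groups (limma adjusted p = 0.147) and was called after quantile normalization was applied again (adjusted p = 0.0380, within a range of 0.0380 to 1). Rab3b read 3.44, 3.38 and 3.59 against 3.28, 3.39 and 3.43, and Rab3c read 3.09, 3.14 and 2.85 against 2.84, 2.84 and 2.80. Both lay below the array median in both populations and were not called (0.10 and 0.20). Neither was Rab37 (-0.15), which acts in granule release.

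Rab8, Rab10 and Rab13 carry cargo from the trans-Golgi network and recycling endosomes to the plasma membrane. Rab13 (probe set 10493692) read 7.51, 7.60 and 8.10 against 6.87, 6.78 and 6.71 in the macrophage arrays, a rise of 0.95 ± 0.17 (limma adjusted p = 0.00341). Rab8b read 11.38, 11.08 and 11.07 against 10.57, 10.52 and 10.34 and rose by 0.70 ± 0.14 (limma adjusted p = 0.00573). In both genes every dendritic array was above every macrophage array. Rab10 read 9.58, 9.23 and 9.40 against 8.89, 8.84 and 8.84, a difference of 0.55 ± 0.13 (limma adjusted p = 0.0155). Its call ended when macrophage replicate 2 (adjusted p = 0.0670) or 3 (0.0556) was omitted, with alternatives from 0.00415 to 1. Rab8a, the paralog of Rab8b, read 9.21, 8.85 and 8.79 against 8.85, 8.70 and 8.71. It overlapped between the populations and differed by 0.19 (95% interval -0.14 to 0.53).

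Of 13 Rabs of the endoplasmic reticulum and Golgi, 4 were called higher and 3 lower (53.8%, where 21.6% of all genes were called). None of the 13 lay below the array median in both populations. Of all genes with a population mean at or above that median, 35.6% were called. Rab30 (probe set 10554938), a Golgi Rab also linked to autophagy of bacteria, had the largest rise of all 59. It read 5.58, 5.73 and 6.52 in the dendritic arrays and 3.26, 3.25 and 3.41 in the macrophage arrays. The macrophage values were below the array median, and the difference was 2.63 ± 0.23 or 6.21-fold (limma adjusted p = 4.55e-05). Rab6b read 6.73, 6.72 and 7.001 against 5.87, 5.75 and 5.84 and rose by 0.998 ± 0.13 (limma adjusted p = 0.000541). Its ubiquitous paralog Rab6a, a Rab of traffic to and within the Golgi, read 7.40, 7.28 and 7.18 against 7.62, 7.48 and 7.40 and was not called (-0.22, 95% interval -0.51 to 0.07).

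The pair of Rab1 genes, needed for transport from the endoplasmic reticulum to the Golgi, was lower. Rab1a read 9.78, 9.57 and 9.61 against 10.44, 10.50 and 10.28 (-0.75 ± 0.13, limma adjusted p = 0.00254). Rab1b read 7.87, 7.74 and 7.95 against 8.31, 8.61 and 8.71 (-0.69 ± 0.14, limma adjusted p = 0.00761). Both were lower on every dendritic array than on any macrophage array. Rab39b read 5.76, 5.40 and 5.52 against 4.603, 4.81 and 4.30, a rise of 0.99 ± 0.16 (limma adjusted p = 0.00229). Its macrophage mean of 4.57 was below the array median.

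Rab39 read 4.53, 5.05 and 5.10 in the dendritic and 4.18, 4.44 and 4.36 in the macrophage arrays, close to the array median. Its difference of 0.57 ± 0.17 was called (limma adjusted p = 0.0478), but not without dendritic replicate 2 (0.157) or 3 (0.164), or without macrophage replicate 1 (0.130), 2 (0.0858) or 3 (0.108). Testing all probe sets (0.101) lost it too, within a range of 0.00458 to 1. Rab33a read 5.25, 4.49 and 4.42 against 5.28, 5.77 and 5.94, with dendritic replicate 1 almost level with macrophage replicate 1. It differed by -0.95 ± 0.25 (limma adjusted p = 0.0242), and its dendritic mean of 4.72 was below the array median. The Rab33a call was lost without dendritic replicate 2 (0.0962) or 3 (0.0918), without macrophage replicate 2 (0.0791) or 3 (0.0934) and with all probe sets tested (0.0697), within a range of 0.000114 to 0.395. Its paralog Rab33b read 5.35, 5.63 and 5.71 against 5.79, 5.47 and 5.72 and was not called (-0.10). Rab2a (-0.12), Rab2b (-0.12), Rab18 (-0.20) and Rab43 (0.31) were not called either. Rab43 was called after quantile normalization was applied again (adjusted p = 0.0298, within a range of 0.0298 to 1).

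Of the 8 Rabs without a settled place in these classes 1 was called in each direction, 25% against 21.6% of all genes. Rab19 (probe set 10537428) read 5.08, 5.19 and 5.08 in the dendritic and 6.34, 6.505 and 6.84 in the macrophage arrays. All dendritic arrays were lower, by -1.45 ± 0.15 or 2.73-fold (limma adjusted p = 0.000145). Rab12, which directs transferrin receptor to degradation, read 6.56, 6.76 and 6.76 against 6.199, 6.17 and 6.13, a small but even rise of 0.52 ± 0.12 (limma adjusted p = 0.0130). By that role Rab12 could also be counted as endocytic, a choice that was not tried. The Rab12 call was lost without dendritic replicate 3 (0.0524) and without macrophage replicate 2 (0.0580) or 3 (0.0516), with alternatives from 0.00173 to 1. Rab44, a large Rab found in granule-bearing blood cells, read 4.97, 6.02 and 6.10 against 5.67, 6.48 and 6.41. Replicate 1 was the lowest in both populations, where the neutrophil genes were highest, and the part of that shared shift in the difference was not tested. Rab44 differed by -0.49 ± 0.32 (limma adjusted p = 0.388) and passed the threshold once replicate number was a block (adjusted p = 0.0234, within a range of 0.0234 to 1). Rab23, Rab28, Rab40b, Rab40c and Rab42 differed by -0.21 to 0.49 and were not called.

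**Figure D3:**
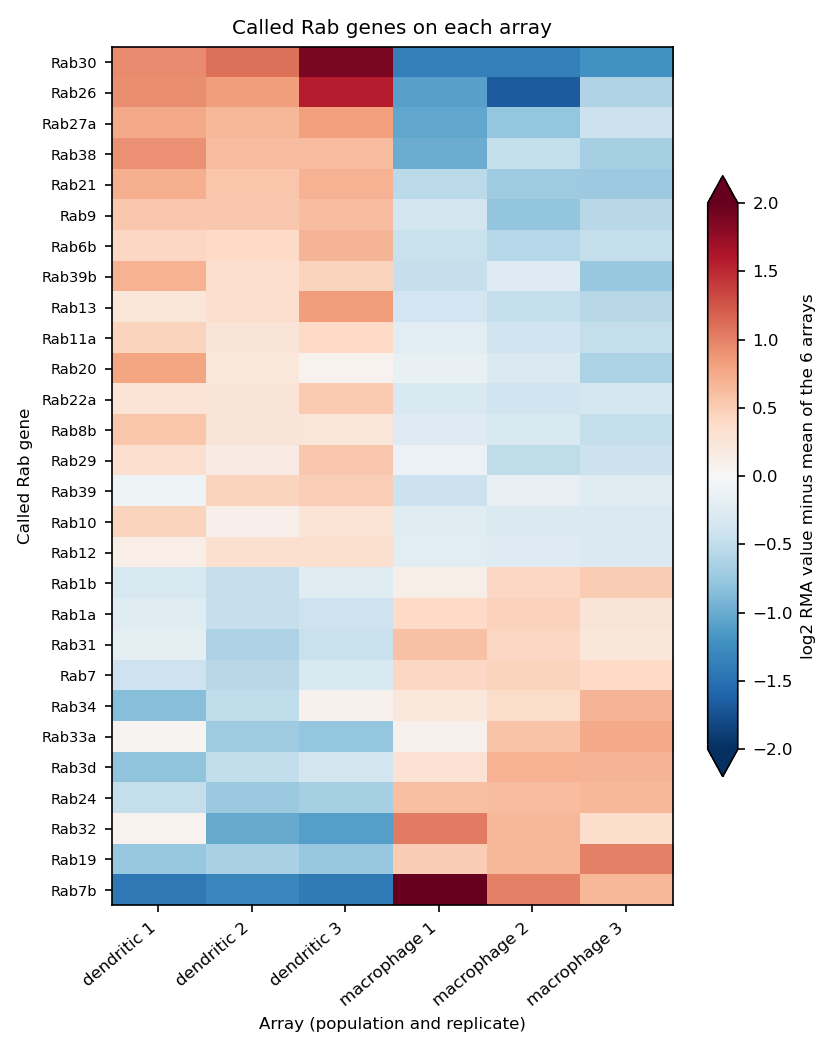
Log2 RMA values of the 28 called Rab genes on the 6 arrays, each gene centred on its mean over the arrays and ordered by difference (red above, blue below the gene's mean). The 3 arrays of a population share a colour, except in Rab32, Rab33a, Rab34 and Rab39, where 1 dendritic array lies slightly on the macrophage side of the gene's mean.

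The other two genes with a matching symbol are not Rab GTPases. Rab5if, the Rab5 interacting factor, was lower by -0.78 ± 0.16 (limma adjusted p = 0.00717). Rab10os, a transcript on the strand opposite to a gene, differed by 0.02 (95% interval -0.26 to 0.30) and was not called.

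RefSeq promoter windows of the build GRCm38.p6 were at hand for 48 of the 59 genes, among them 14 called higher and 10 called lower. The 250 bases before the gene start were searched on both strands for CACGTG (the E-box), for TGANTCA (AP-1), for GAGGAAGT (PU.1), for CCAAT (NF-Y), for GGGCGG (Sp1), for the kappaB motif and for the interferon regulatory factor motif, in which GAAA is repeated after a gap of 2 bases. The E-box, which MiT/TFE, USF and Myc factors bind, was found in 3 of the 14 higher genes (Rab20, Rab21 and Rab27a), in none of the 10 lower genes and in 2 of the 24 not called (Rab5a and Rab23). It was found in 6.86% of all 27025 genes with a window. GGGCGG was found in 36 of 48 Rab genes and in 35.4% of all genes, and CCAAT in 24 of 48 and in 37.5%. TGANTCA was found in 2 Rab genes (7.82% of all genes) and the kappaB motif in 2 (4.46%). GAGGAAGT was found in 2, Rab32 and the uncalled Rab2b (2.79%), and the interferon regulatory factor motif in 1, Rab19 (3.46%). These matches describe letters in a window and were not tested against the differences. The windows of Rab21 and Rab27a, both higher, are shown with CACGTG in capitals, and those of Rab32 and Rab19, both lower, with the PU.1 and the interferon regulatory factor motif (here on the opposite strand) in capitals, so that the letters behind these counts can be read. The Rab21 window is chr10:115315592-115315841 on the minus strand, and that of Rab27a, 1 of its 2 windows, chr9:73063898-73064147 on the plus strand. The Rab32 window is chr10:10558208-10558457 on the minus strand and that of Rab19 chr6:39381103-39381352 on the plus strand.
Rab21: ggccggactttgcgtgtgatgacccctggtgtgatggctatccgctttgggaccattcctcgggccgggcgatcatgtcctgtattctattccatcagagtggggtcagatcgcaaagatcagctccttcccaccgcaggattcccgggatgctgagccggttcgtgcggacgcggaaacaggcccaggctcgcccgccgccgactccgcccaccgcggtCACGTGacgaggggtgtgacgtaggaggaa
Rab27a: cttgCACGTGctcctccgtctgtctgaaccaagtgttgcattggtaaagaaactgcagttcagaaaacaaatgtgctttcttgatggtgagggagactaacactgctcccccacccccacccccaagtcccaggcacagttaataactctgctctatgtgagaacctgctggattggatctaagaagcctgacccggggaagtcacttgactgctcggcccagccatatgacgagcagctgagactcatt
Rab32: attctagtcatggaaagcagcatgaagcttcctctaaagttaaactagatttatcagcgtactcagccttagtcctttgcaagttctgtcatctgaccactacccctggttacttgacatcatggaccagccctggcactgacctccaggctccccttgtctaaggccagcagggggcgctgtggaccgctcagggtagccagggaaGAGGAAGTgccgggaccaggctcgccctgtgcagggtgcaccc
Rab19: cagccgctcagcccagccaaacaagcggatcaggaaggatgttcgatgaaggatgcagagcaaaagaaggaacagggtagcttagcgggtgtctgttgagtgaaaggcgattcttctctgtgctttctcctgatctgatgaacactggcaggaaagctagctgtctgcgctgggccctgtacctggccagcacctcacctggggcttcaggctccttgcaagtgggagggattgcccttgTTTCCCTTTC

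The proteins that switch Rabs on and off, and those that act on their orders, were examined as lists, beside the 21.6% of all genes called. Of genes with a population mean at or above the array median 35.6% were called. In both populations 15 of the 134 regulators and effectors lay below that median. GDP dissociation inhibitors and the prenylation machinery hold Rabs soluble and attach their lipid anchors. Of 7 measured, 1 was called (14.3%), the escort protein gene Chml, lower by -0.79 ± 0.15 (limma adjusted p = 0.00501). Exchange factors load Rabs with GTP, and 12 of 36 were called higher and 8 lower (55.6%), with a median of 0.13. Dennd4a (2.19 ± 0.18, limma adjusted p = 3.11e-05) and Dennd5a (1.11 ± 0.15) rose most. Dennd4c, in the same family of Rab10 exchange factors, went the other way (-2.16 ± 0.28, limma adjusted p = 0.000559), as did Rab3il1 (-1.67 ± 0.20) and Dennd2a (-1.36 ± 0.20). Dennd3, an exchange factor of Rab12, was higher by 0.99 ± 0.26 (limma adjusted p = 0.0233). That call was lost without dendritic replicate 2 (0.0900) or 3 (0.0881), without macrophage replicate 1 (0.0603) or 3 (0.0600) and with all probe sets tested (0.0683), within a range of 0.00119 to 0.345. Hps4, part of the exchange factor of Rab32 and Rab38, was named after its values were seen and was higher by 0.82 ± 0.15 (limma adjusted p = 0.00412). Hps1, the other listed part of that exchange factor, differed by 0.06 with overlapping arrays and was not called (limma adjusted p = 0.844).

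GTPase-activating proteins, which end the active state, included the largest differences of the regulators. Of 37, 10 were called higher and 5 lower (40.5%), with a median of -0.01. Tbc1d4, known from insulin-regulated traffic of glucose transporters and acting on Rab8, Rab10 and Rab14, read 8.18, 8.11 and 8.08 in the dendritic and 4.98, 4.37 and 4.65 in the macrophage arrays. All dendritic arrays were above all macrophage arrays, by 3.46 ± 0.16 or 11.0-fold (limma adjusted p = 1.34e-06). Its macrophage mean of 4.67 was below the array median. Rabgap1l (2.96 ± 0.20) and Tbc1d8 (1.94 ± 0.14) rose next, and Tbc1d2b (-1.70 ± 0.17), Evi5 (-1.28 ± 0.23) and Tbc1d22a (-0.995 ± 0.17) were lowest.

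Effectors of endocytic Rabs were called higher in 5 and lower in 7 of 26 cases (46.2%), with a median of -0.20. Vps39, a subunit of the HOPS tether that Rab7 recruits, rose by 1.28 ± 0.12 (limma adjusted p = 8.63e-05), the Rab5 effector Appl1 by 0.95 ± 0.14 and Rab11fip1 by 0.77 ± 0.16. Plekhm1, an adaptor between Rab7 and lysosome fusion, went the other way (-1.22 ± 0.14, limma adjusted p = 0.000268), as did Rab11fip5 (-1.57 ± 0.20). Wdfy4, a BEACH-domain protein of cross-presentation whose binding to a Rab is less settled, read 4.26, 5.01 and 4.40 against 7.54, 7.30 and 7.11 and had the largest difference of the list (-2.76 ± 0.21). Of 28 effectors of secretory Rabs, 1 was higher and 4 lower, with a median of 0.04 and a share called (17.9%) near that of all genes, and 10 of 28 lay below the array median in both populations. The higher gene was Unc13d (0.57 ± 0.12, limma adjusted p = 0.00872), a Rab27a effector of granule release. Exoc6 (-1.26 ± 0.14), an exocyst subunit, Ehbp1 (-0.86 ± 0.18) and the motor Myo5a (-0.65 ± 0.16) were lower. The Myo5a call (limma adjusted p = 0.0157) was lost without macrophage replicate 2 (0.0757) and with 75th percentile centring (0.0716), within a range of 0.00263 to 1. The synaptotagmin-like Rab27 effectors Sytl1 to Sytl5 were not called, with differences from -0.06 (Sytl3) to 0.15 (Sytl2).

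Blocking on the replicate number took the regulators and effectors together from 28 higher and 25 lower to 29 and 29, by 5 added calls that were named after their values were seen. Rab3ip, an exchange factor, was then higher (0.38, limma adjusted p = 0.131 without and 0.0388 with the block). The exchange factor Dennd1c (-0.42, 0.0909 and 0.0261), the GTPase-activating proteins Tbc1d2 (-0.61, 0.110 and 0.0484) and Tbc1d19 (-0.41, 0.396 and 0.0358) and the exocyst subunit Exoc5 (-0.54, 0.0941 and 0.0165) were then lower. Over the alternatives the adjusted p ranged up to 1 for all 5, from 0.0388 for Rab3ip, 0.0244 for Dennd1c, 0.0199 for Tbc1d2, 0.0358 for Tbc1d19 and 0.0063 for Exoc5.

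**Figure D4:**
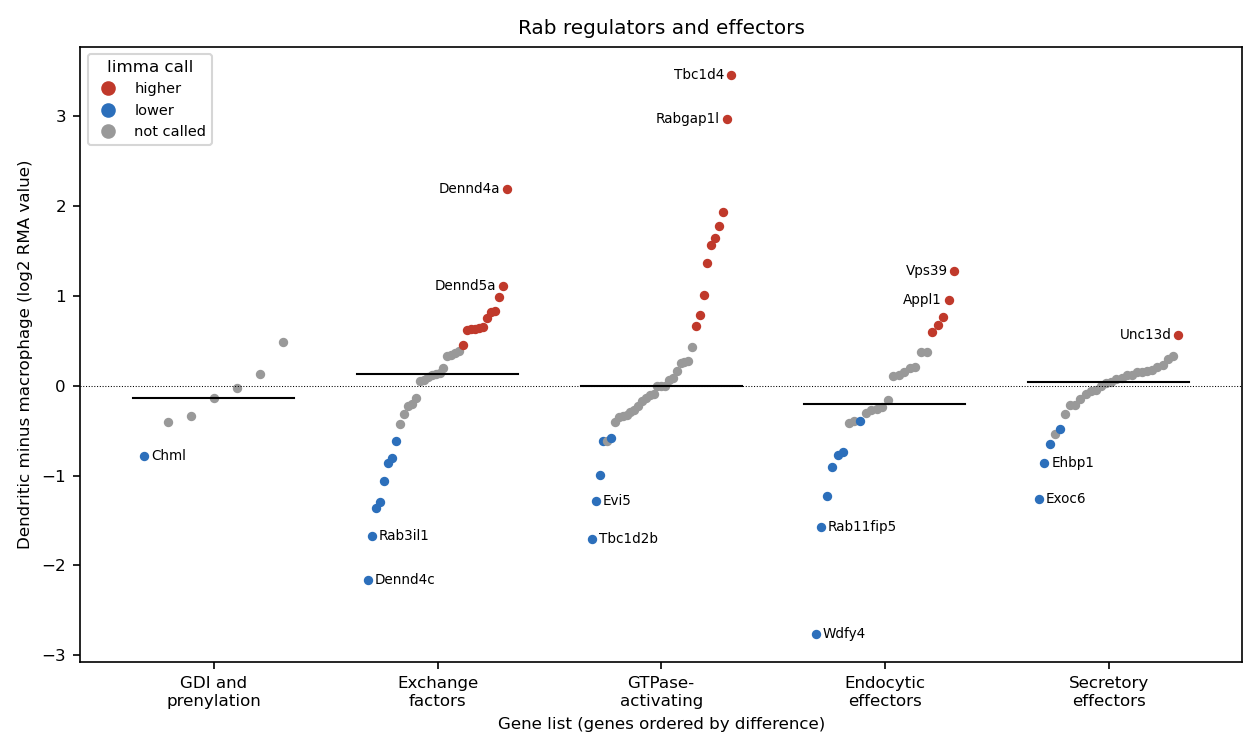
Dendritic minus macrophage differences (log2 RMA values) of genes in 5 lists of Rab regulators and effectors, ordered by difference within a list, with lines at the list medians. Tbc1d4 (3.46) is the highest and Wdfy4 (-2.76) the lowest point, and the secretory effectors have the smallest median absolute difference (0.17).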

How the data were processed

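The deposited values are log2 expression values, 1 for each of 35556 probe sets on 6 arrays, which the authors made with RMA under R 3.0.2 according to the submitters' processing notes. RMA comprises background correction, quantile normalization and probe summaries. The sources used here name no probe set definition or filter. There are no detection calls. The number of arrays limits the precision.

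Probe sets with 1 gene symbol (21789) took their names from the table of GEO's platform annotation, with symbols updated through Entrez identifiers in RefSeq (0 changed). A gene with several probe sets was represented by the one of highest average level. limma 3.58.1 in R 4.3.3 (lmFit, eBayes, 2-sided) was fitted to all 19938 genes with population as the term, no filter, and Benjamini-Hochberg adjustment. The fit was tested on simulated data. Python 3.11.15 was used for tables.

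Arrays are printed for up to 4 called genes per class and direction (largest differences) and for relatives that were uncalled or went the other way. Of each regulator list up to 3 called genes per direction are named. The arrays of Rab10, Rab44, Tbc1d4 and Wdfy4 were added after their values were seen. Members, classes and lists were chosen with earlier results of these data known. Arrays of the same number deviated together from the means of their populations (r across genes of 0.385, 0.147 and 0.272, all over 0.1). The replicate numbers in the titles were therefore taken as a possible pairing. They entered as a block in an alternative fit, and the main fit and its p-values do not use them. Dendritic 2 correlated with macrophage 3 at 0.155, above its own number, and dendritic 3 with macrophage 2 at 0.128, also over 0.1. Blocked values are given for the members, regulators and effectors whose call they change.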

Additional observations from a re-analysis of the deposited data

How the results depend on the processing

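Of the 28 called Rab genes 0 changed sign in 16 alternatives, and 11 (7 higher, 4 lower) were called in every alternative that tested them. When the size was tested against a log2 difference of 0.5 (limma treat), 7 Rab genes were higher and 4 lower, with 2 and 2 in the endocytic class, 2 higher and 1 lower in the secretory class, and 10 higher and 10 lower among 134 regulators and effectors (28 and 25 without that bound). After quantile normalization was applied again 2 secretory Rabs were lower. With ER and Golgi Rabs counted as secretory, that class had 9 higher and 4 lower. With the replicate number as a block 17 Rab genes were higher and 13 lower (endocytic 5 and 6, secretory 5 and 1), the additions being Rab35 and Rab44, and no other Rab call changed; regulators and effectors had 29 and 29. Leaving out single arrays, or replicate 1 of both populations, gave 12 to 17 higher and 8 to 13 lower Rab genes. The share of all genes called in the alternative fits is not given here, so their counts can be set only against those of the main fit. The causes were not tested. With 3 arrays a population, differences near 0.5 are at the limit of what was called.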
